A study of Mus musculus with 12 samples.

Results

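The cytochrome P450 genes were followed in 2 cell types of injured mice, with and without glutamine. A member was every gene whose symbol in the deposited tables had the form Cyp, a family number, a subfamily letter and a gene number. This rule gave 94 genes, of 50433 gene symbols in the table of tubular epithelial cells and 50434 in that of neutrophils. It left out 42 further symbols beginning with Cyp, 33 of which were marked as pseudogenes. Among those left out were Cyp51 and the Cyp4a12a and Cyp4a12b pair, which are given separately.

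All libraries came from wild-type mice, adult male C57BL/6J animals in the study's methods, in which both renal pedicles had been clamped for a time and then released (ischemia-reperfusion injury, IRI). Renal tubular epithelial cells (TECs) were sorted from the kidney as CD45-negative, Prominin-1-positive cells 24 hours later, and neutrophils (PMN) were taken from the blood at the same time. In each cell type 3 libraries came from mice given glutamine, injected as the alanyl-glutamine dipeptide in the study's methods, and 3 from mice given vehicle, which the methods name as saline. Both groups therefore carried the injury, and no uninjured cells were analysed here. The labels number the TEC vehicle libraries 3 to 5 and the TEC glutamine libraries 1 to 3. PMN libraries are numbered 1 to 3 in each group, for naming alone. The labels do not say that each library is a separate mouse, so a p-value here measures the spread between libraries, which may be technical.

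P450 enzymes hold a heme group in the membrane of the endoplasmic reticulum or of the mitochondrion and insert 1 atom of oxygen into their substrate, with electrons from P450 oxidoreductase or from the adrenodoxin system. Families 1 to 3 mainly oxidise drugs and other foreign compounds, with epoxygenases of arachidonic acid among family 2, and family 4 hydroxylates fatty acids and eicosanoids at or near the far end of the chain. The families with higher numbers act on single endogenous substrates such as vitamin D, retinoic acid, cholesterol and steroid hormones. In the kidney the proximal tubule is their main site, and vitamin D is both activated and inactivated there.

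Levels are given as CPM, counts scaled to a common effective library size. TEC libraries held 5397370 to 10223461 estimated counts and PMN libraries 20225246 to 21878446. In TECs the summed proximal tubule markers reached 4678 to 7472 CPM and all 12 were at 1 CPM or more. Thick ascending limb markers summed to 1043 to 2278 CPM in the same libraries and endothelial markers to 201 to 336 CPM. In PMN the summed neutrophil markers reached 18980 to 69070 CPM and those of monocytes and macrophages 4461 to 8136 CPM. Across genes, log2 CPM of different PMN libraries correlated at 0.589 to 0.688 and that of different TEC libraries at 0.909 to 0.953. Kidney markers stood out in 2 PMN libraries, with thick ascending limb markers at 1026 CPM in vehicle library 1 and podocyte markers at 1451 CPM in vehicle library 2. In TECs red blood cell markers ran from 802 to 6709 CPM and were highest in glutamine library 2, which was also the least deep. A count of 0 allowed up to 0.269 to 0.603 CPM in a TEC library and 0.137 to 0.158 CPM in a PMN library, for counting error.

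In TECs 32 members were expressed, taken as a mean of at least 1 CPM over the 6 libraries. A further 42 had some counts below that mean and 20 had none in any of the 6 libraries. In PMN 16 members were expressed, 16 had some counts and 62 had none. Of the 33 members expressed in either cell type, 15 were expressed in both, 17 in TECs alone by this threshold and 1, Cyp4f18, in PMN alone. Just inside the threshold in TECs were Cyp27b1 with a mean of 1.28 CPM and Cyp7b1 with 1.14 CPM, and just outside it were Cyp39a1 with 0.997 CPM and Cyp7a1 with 0.905 CPM. In PMN, Cyp4f17 was just inside with 2.02 CPM and Cyp2a5 just outside with 0.920 CPM.

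No member differed between glutamine and vehicle in TECs at an adjusted p below 0.05 (edgeR quasi-likelihood test, Benjamini-Hochberg adjustment over 14734 genes). All genes tested gave the same share, 0%. Of the 33 members tested, the 32 expressed ones and Cyp39a1, 18 had higher fitted levels with glutamine and 15 lower. At an unadjusted p below 0.05 there were 3 higher members and 1 lower one, where 7.32% of all genes were higher and 5.58% lower. The members' median log2 fold change was 0.13, against 0.0069 for all genes, and it was -0.12 without glutamine library 3. DESeq2 called 0 of the 30 members it gave an adjusted p, where it called 1.93% of all such genes, and limma-voom called 0 of 33 members and 0% of all genes. At an unadjusted p below 0.05 there were 6 of 74 members with DESeq2, against 8.08% of all genes, and 3 of 33 with limma-voom, against 12.9%. Without an expression filter edgeR called 2 of 74 members, Cyp2j13 and Cyp26b1, and 1.37% of all genes. Since the cells were measured in bulk, a difference in cell make-up and one in RNA per cell cannot be told apart.

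**Figure D1:**
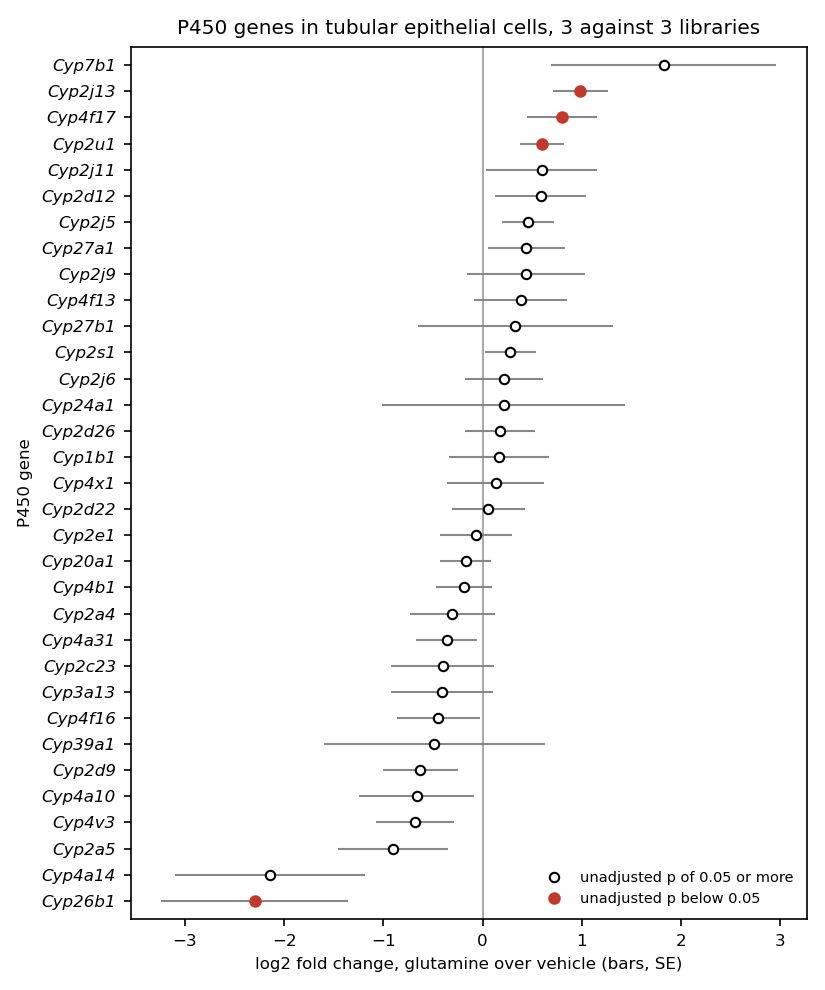
The log2 fold change of glutamine over vehicle is plotted for the 33 P450 genes tested in TECs, with bars of 1 SE and 3 libraries in each group. The 4 filled points, Cyp26b1 on the lower side and Cyp2u1, Cyp4f17 and Cyp2j13 on the upper side, had an unadjusted p below 0.05.

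The 10 most abundant members held 86.4% of all P450 CPM in TECs. Summed over all 94 members, the level was 1841, 1962 and 2069 CPM in vehicle libraries 3, 4 and 5, and 1599, 1504 and 2714 CPM in glutamine libraries 1, 2 and 3. The group means were 1958 ± 114 and 1939 ± 673 CPM (SD, n = 3 each), so the groups overlapped and the glutamine libraries were spread more widely. Per kilobase of exon, Cyp4b1 and Cyp2d26 led with mean levels of 207.6 and 202.9 CPM per kb. Cyp4a31 and Cyp2j5 followed with 85.5 and 85.4 CPM per kb, and Cyp2e1 and Cyp4a10 with 39.3 and 38.7 CPM per kb. In each of these pairs the libraries of one gene overlapped those of the other.

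**Figure D2:**
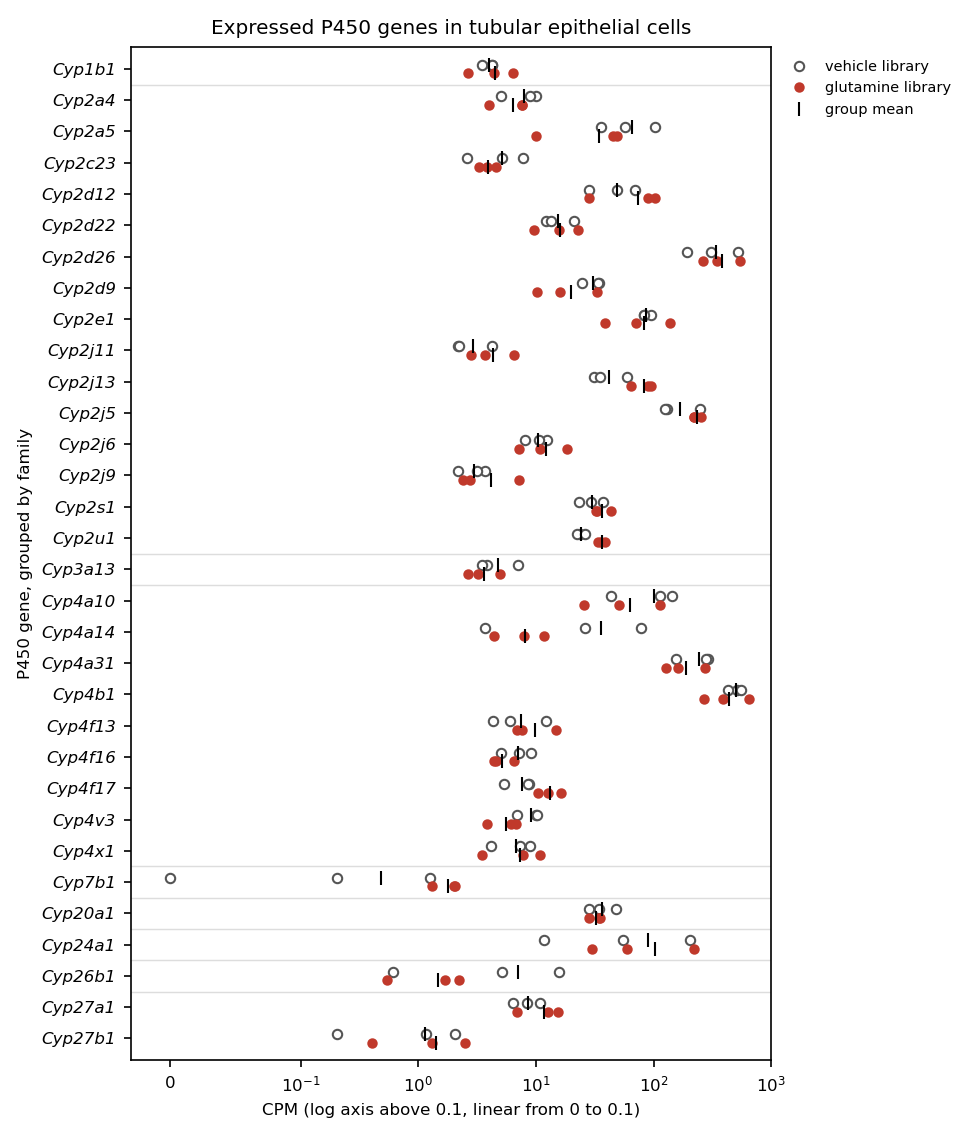
CPM of the 32 P450 genes expressed in TECs is plotted by family, with open points for the 3 vehicle libraries, filled points for the 3 glutamine libraries and a bar for each group mean. Levels run from Cyp4b1, with a mean of 468 CPM, to Cyp7b1 with 1.14 CPM, and the points separate by group for Cyp2j13, Cyp2u1, Cyp4f17 and Cyp7b1 on the higher side and for Cyp4v3 on the lower side.

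Family 4 held the fatty acid hydroxylases. Of its 17 members 9 were expressed in TECs, of which 6 had lower and 3 higher fitted levels with glutamine, with a median log2 fold change of -0.36. Without glutamine library 3 there were 8 lower and 1 higher with a median of -0.60, and without glutamine library 2 there were 5 and 4 with a median of -0.15. Cyp4b1, which hydroxylates fatty acids and activates some protoxins, was the most abundant P450 gene. It lies on the minus strand of chromosome 4 at 115624725 to 115647723 (GRCm38). Its levels were 513, 553 and 431 CPM in vehicle libraries 3, 4 and 5 and 391, 268 and 654 CPM in glutamine libraries 1, 2 and 3. The highest and the lowest library were both glutamine libraries, and the log2 fold change was -0.19 with an SE of 0.28.

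Promoter sequence from RefSeq (GRCm38.p6) was at hand for 73 of the 94 members. The 250 bases before the start site are shown for 3 of them, Cyp4b1 as the most abundant member in TECs, Cyp2j13 as the member with the smallest p-value in TECs and Cyp4f18 as the most abundant member in PMN. Each is written from 5′ to 3′ on the gene's own strand, with matches to the Sp1-type GC box GGGCGG or its reverse complement CCGCCC in capitals. The windows are chr4:115647722-115647971 for Cyp4b1, chr4:96077541-96077790 for Cyp2j13 and chr8:72009627-72009876 for Cyp4f18, all on the minus strand.
Cyp4b1: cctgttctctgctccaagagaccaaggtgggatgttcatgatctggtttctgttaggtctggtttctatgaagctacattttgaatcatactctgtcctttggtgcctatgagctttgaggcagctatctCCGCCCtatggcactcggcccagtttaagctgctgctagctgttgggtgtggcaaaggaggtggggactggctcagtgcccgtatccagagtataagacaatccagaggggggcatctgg
Cyp2j13: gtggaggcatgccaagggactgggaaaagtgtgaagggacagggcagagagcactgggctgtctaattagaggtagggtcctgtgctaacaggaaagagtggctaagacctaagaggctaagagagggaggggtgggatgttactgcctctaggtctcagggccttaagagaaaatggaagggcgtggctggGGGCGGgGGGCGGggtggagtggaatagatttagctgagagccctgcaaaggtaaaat
Cyp4f18: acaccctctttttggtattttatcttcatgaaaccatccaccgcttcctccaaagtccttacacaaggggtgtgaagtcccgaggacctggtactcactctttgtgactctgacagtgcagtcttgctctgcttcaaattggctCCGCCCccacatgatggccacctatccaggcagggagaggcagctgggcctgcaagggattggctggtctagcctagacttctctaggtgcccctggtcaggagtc
Cyp2j13 held 2 GC boxes, 51 and 58 bases before the start, and the other two held 1 each. A GC box was found in 32.7% of 32851 promoter windows of this length. Neither the TATA box TATAAA, in 12.4% of windows on either strand, nor the nuclear receptor half-site AGGTCA, in 14% of windows, was found in the 3 windows. Of the 73 members with a window, 16 held a GC box, 27 the TATA box and 18 the half-site. The 3 windows shown therefore do not stand for the members as a whole. All of these are matches of letters and were not tested as sites.

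The Cyp4a genes lie beside Cyp4b1 on chromosome 4. They hydroxylate fatty acids and are known targets of PPARA, the receptor that senses fatty acids. Cyp4a31 read 289, 279.9 and 156 CPM in vehicle libraries 3, 4 and 5 and 162, 129 and 273 CPM in glutamine libraries 1, 2 and 3. Cyp4a10 read 144, 114 and 43.2 CPM against 50.8, 25.5 and 113 CPM. Both genes were high in vehicle libraries 3 and 4 and in glutamine library 3, and the groups overlapped. Cyp4a14 went further in the same direction, with 78.3, 26.2 and 3.67 CPM in the vehicle libraries and 7.93, 4.42 and 11.7 CPM in the glutamine libraries. Its log2 fold change was -2.14 with an SE of 0.96 and an adjusted p of 0.409 by edgeR, and -0.89 without vehicle library 3. For Cyp4a31 and Cyp4a10 the log2 fold changes were -0.36 and -0.67, and they ran from -0.73 to -0.15 and from -1.39 to -0.30 when 1 library was left out. Reads of Cyp4a10 and Cyp4a31 are partly shared with their neighbour Cyp4a32, since 24.5% and 14.7% of their 50-base windows occur in it too, so their levels are uncertain as single genes.

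The 3 libraries with the highest level were the same for Cyp4a10, Cyp4a14, Cyp4a31 and Cyp4b1: vehicle 3, vehicle 4 and glutamine 3. This was so for 4 of 33 tested members (12.1%) and for 6.25% of all genes tested. In a list of other PPARA targets it was so for 5 of 11 tested genes, among them Ehhadh, an enzyme of peroxisomal fatty acid oxidation. Ehhadh read 42.3, 40.4 and 19.2 CPM in vehicle libraries and 15.1, 11.1 and 36.2 CPM in glutamine libraries. The pattern was noticed in these data and is given as a description. Of the 11 PPARA targets 9 had lower and 2 higher fitted levels, with a median log2 fold change of -0.27, and 8 were lower with factors taken without predicted and receptor genes. At an unadjusted p below 0.05 there was 1, Acot2, an acyl-CoA thioesterase of mitochondria, which was lower with a log2 fold change of -0.68, and 5.58% of all genes were lower at that level. Leaving out 1 library gave 7 to 11 lower genes and a median of -0.46 to -0.18.

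The closely related pair left out by the naming rule was also highest in vehicle libraries 3 and 4. Cyp4a12a, the main mouse enzyme forming 20-HETE, read 92.5, 70.8 and 34.8 CPM in vehicle libraries and 46.1, 36.6 and 42.1 CPM in glutamine libraries. Cyp4a12b read 48.8, 33.9 and 10.5 CPM against 11.3, 8.03 and 14.1 CPM. Its log2 fold change was -1.47 with an SE of 0.47, an unadjusted p of 0.00996 and an adjusted p of 0.251 by edgeR. Of 4 tested P450 genes outside the naming rule it was the 1 at an unadjusted p below 0.05. Of all genes 5.58% were lower at that level. The groups overlapped in both genes. Windows shared between Cyp4a12a and Cyp4a12b were not computed, so their levels are uncertain as single genes.

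Havcr1, the kidney injury molecule of the proximal tubule, was highest in vehicle libraries 3 and 4. It read 793, 541 and 106 CPM in vehicle libraries 3, 4 and 5 and 94.0, 49.4 and 26.2 CPM in glutamine libraries 1, 2 and 3. The 5 injury markers summed to 5712, 3623 and 2236 CPM in the vehicle libraries and to 3243, 2831 and 2229 CPM in the glutamine libraries. Of the 5 genes Havcr1 alone had vehicle libraries 3 and 4 as its highest pair. Lcn2 and Clu were highest in vehicle library 3, while vehicle library 4 lay below glutamine libraries 1 and 2 for both. Vcam1 was highest in vehicle library 4, and Krt20 was lowest in vehicle library 3. The 12 proximal tubule markers summed to 4678, 6626 and 6530 CPM in vehicle libraries and to 5145, 6581 and 7472 CPM in glutamine libraries, lowest in vehicle library 3. Their part in the P450 levels was not tested.

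**Figure D3:**
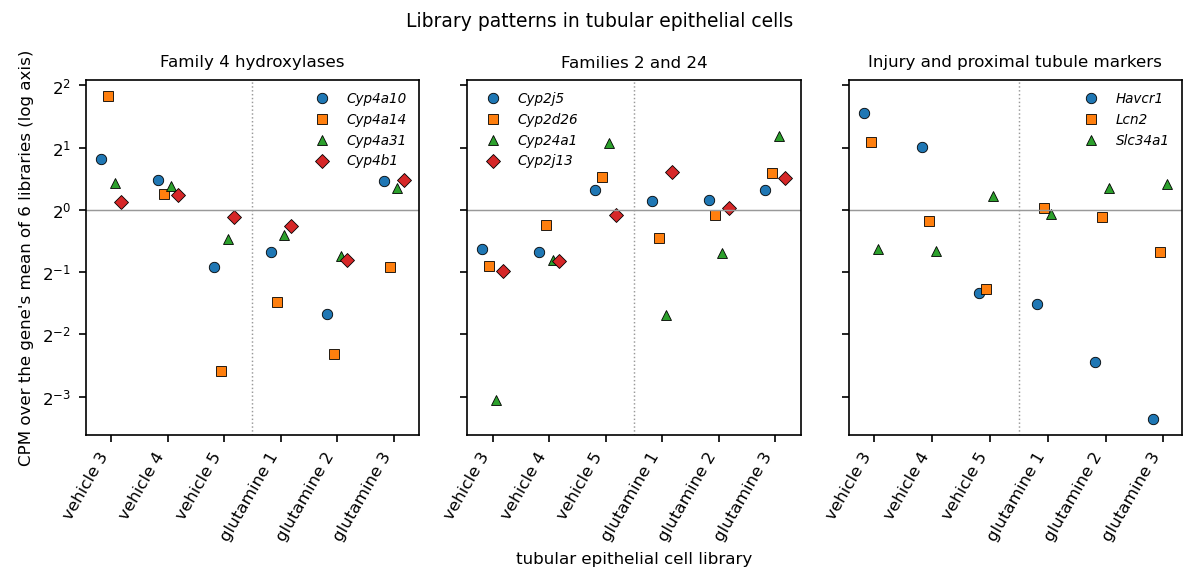
CPM in each TEC library is plotted over the gene's mean of the 6 libraries on a log axis, for 4 family 4 hydroxylases, for Cyp2j5, Cyp2d26, Cyp24a1 and Cyp2j13, and for 3 marker genes chosen after their values were seen, Havcr1, Lcn2 and Slc34a1; the dotted line parts vehicle from glutamine. The Cyp4a genes sit above their means in vehicle 3 and 4, Cyp24a1 sits far below its mean in vehicle 3, and Havcr1 is at 793 CPM in vehicle 3 and at 26.2 CPM in glutamine 3.

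The remaining family 4 members were low, with means of 6.12 to 10.3 CPM. Cyp4f17 was higher with glutamine at an unadjusted p of 0.0438 (adjusted p = 0.374, edgeR). It read 5.33, 8.78 and 8.56 CPM in vehicle libraries and 16.2, 10.4 and 12.7 CPM in glutamine libraries, so the groups did not overlap. Its log2 fold change was 0.80 with an SE of 0.35. Cyp4v3, related to the human fatty acid hydroxylase CYP4V2, was the single tested member whose glutamine libraries all lay below the vehicle libraries. It read 9.96, 10.2 and 6.93 CPM against 6.13, 3.82 and 6.80 CPM, with an unadjusted p of 0.111 (edgeR). Among all genes tested, the groups did not overlap on the lower side in 9.81% and on the higher side in 9.01%. The 1 of 33 and 4 of 33 members are read against those shares. Those 4 include Cyp7b1, which reached a mean of 1 CPM only through its glutamine libraries.

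Family 2 was the largest, with 49 members, 15 of which were expressed in TECs. Of these 10 had higher and 5 lower fitted levels with glutamine, with a median log2 fold change of 0.22. Without glutamine library 3 there were 8 higher and 7 lower. The median was 0.12 without vehicle library 4 and 0.38 without glutamine library 1. The Cyp2j subfamily, which forms epoxides and hydroxylated products of arachidonic acid, had 5 tested members, and the fitted level of each was higher with glutamine. The median log2 fold change of the 5 was 0.46, and it was 0.30 without vehicle library 3 and 0.85 without vehicle library 5. Without glutamine library 2, 3 of the 5 were higher and 2 lower. Summed Cyp2j levels were 174, 179.5 and 328 CPM in vehicle libraries 3, 4 and 5 and 330.4, 317 and 361 CPM in glutamine libraries 1, 2 and 3.

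Cyp2j13 had the smallest p-value of the members. It lies on the minus strand of chromosome 4 at 96027534 to 96077546 (GRCm38), within a cluster of Cyp2j genes, and 99.9% of its 50-base windows were unique. Its levels were 31.4, 35.2 and 59.1 CPM in vehicle libraries and 94.9, 63.9 and 89.1 CPM in glutamine libraries, so the groups did not overlap. The log2 fold change was 0.98 with an SE of 0.28, an unadjusted p of 0.00461 and an adjusted p of 0.222 by edgeR. Across the other settings tried the adjusted p ranged from 0.0195 without an expression filter to 0.573 without vehicle library 4. The fold change stayed between 0.81 and 1.31 when any 1 library was left out.

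Cyp2j5, an abundant renal epoxygenase, read 130.1, 126 and 250.3 CPM in vehicle libraries and 222, 223 and 250.8 CPM in glutamine libraries. Vehicle libraries 3 and 4 were low and vehicle library 5 lay among the glutamine libraries. Among the 12 proximal tubule markers, 10 of which had higher and 2 lower fitted levels with glutamine, Slc34a1 ran the same way, with 1318, 1298 and 2374 CPM in vehicle libraries and 1952, 2595 and 2711 CPM in glutamine libraries. The 4 distal convoluted tubule markers summed to 126.8, 78.1 and 83.6 CPM against 188, 224 and 123 CPM, and each had a higher fitted level. Their part in the Cyp2j levels was not tested. The log2 fold change of Cyp2j5 was 0.46 with an SE of 0.26, and its adjusted p by edgeR was 0.488. This fold change ran from 0.28 to 0.85 when 1 library was left out. Cyp2j6, Cyp2j9 and Cyp2j11 had means of 3.56 to 11.2 CPM, and their groups overlapped.

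Cyp2u1, which hydroxylates long-chain fatty acids, was the steadiest of the members with a low p-value. It read 23.6, 22.5 and 26.0 CPM in vehicle libraries and 39.0, 33.9 and 36.0 CPM in glutamine libraries. The groups did not overlap, and the log2 fold change was 0.60 with an SE of 0.22, the smallest SE of the 33 members. Its unadjusted p was 0.0205 and its adjusted p 0.305 (edgeR). Cyp2s1, of the same role group, had a mean of 33.1 CPM and a log2 fold change of 0.28, and its groups overlapped.

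The family 2 members that act on drugs and other foreign compounds overlapped between the groups. Cyp2d26 read 194, 307 and 525 CPM in vehicle libraries and 264.5, 345 and 545.8 CPM in glutamine libraries. Library 5 of vehicle and library 3 of glutamine were the highest. Cyp2e1, which oxidises ethanol and paracetamol, read 82.3, 95.3 and 82.9 CPM against 70.9, 38.6 and 139 CPM, so the vehicle libraries lay close together within the range of the glutamine ones. Cyp2d12 read 69.9, 49.4 and 28.5 CPM against 28.2, 89.6 and 104 CPM.

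Cyp2a5, the coumarin 7-hydroxylase of the mouse, read 36.0, 103 and 56.9 CPM in vehicle libraries and 48.7, 10.04 and 45.2 CPM in glutamine libraries. Glutamine library 2 was lowest and vehicle library 4 highest, and the log2 fold change was -0.90 with an SE of 0.55. When 1 library was left out it ran from -1.22 to -0.42. Cyp2a5 shares 28.1% of its 50-base windows with Cyp2a4, a steroid hydroxylase, so reads of the pair may have been split between them. The other expressed members grouped under drug and fatty acid metabolism in family 2 were Cyp2a4, Cyp2c23, Cyp2d9 and Cyp2d22. They had means of 4.52 to 25.3 CPM and log2 fold changes of -0.63 to 0.06. Of the windows of Cyp2d9 78.2% were unique. Cyp2c23, an epoxygenase of arachidonic acid with a log2 fold change of -0.40, was the single expressed member of 15 in its subfamily. Cyp3a13 was likewise the single expressed member of 7 in family 3, with a mean of 4.19 CPM. Cyp1b1, the single expressed member of the aryl hydrocarbon receptor (AHR) targets in family 1, had a mean of 4.24 CPM and a log2 fold change of 0.16.

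Of the vitamin D genes, Cyp24a1, which inactivates the vitamin D hormone, read 11.6, 55.1 and 203 CPM in vehicle libraries 3, 4 and 5 and 29.9, 60.1 and 221 CPM in glutamine libraries 1, 2 and 3. The levels ran over the same range in both groups, and the highest library was 19.0 times the lowest. The log2 fold change was 0.21 with an SE of 1.22, the largest SE of the 33 members. Leaving out 1 library moved the fold change between -1.01 and 1.64. Cyp27b1, which makes the hormone, was at the edge of detection with 2.07, 1.16 and 0.204 CPM against 2.52, 0.402 and 1.32 CPM. Cyp2r1, which forms its precursor, had 0 to 5 counts in a library. Of 6 other genes of vitamin D handling, 4 were higher and 2 lower, and the reverse, 2 higher and 4 lower, was found without vehicle library 3, vehicle library 4 or glutamine library 3. Dab2, an adaptor of the uptake receptor megalin, was the 1 gene of the 6 at an unadjusted p below 0.05, where 5.58% of all genes were lower and 7.32% higher. It was lower, with a log2 fold change of -0.70, an unadjusted p of 0.0172 and an adjusted p of 0.289 (edgeR). It read 648, 775 and 437 CPM in vehicle libraries and 366, 291 and 484 CPM in glutamine libraries, so the groups overlapped. The vitamin D receptor Vdr read 54.5, 59.9 and 63.3 CPM against 39.0, 48.6 and 77.0 CPM.

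Cyp26b1, which breaks down retinoic acid, was the member with the largest fitted decrease. It read 15.6, 5.11 and 0.611 CPM in vehicle libraries and 1.68, 2.21 and 0.548 CPM in glutamine libraries. Vehicle libraries 3 and 4 were high, vehicle library 5 lay among the glutamine libraries, and the groups overlapped. The log2 fold change was -2.30 with an SE of 0.94, an unadjusted p of 0.0327 and an adjusted p of 0.347 (edgeR). The adjusted p ranged from 0.0279 without an expression filter to 0.81 without vehicle library 3, where the fold change was -0.98. The limma-voom test gave an unadjusted p of 0.257. Its relatives were near 0, Cyp26a1 with 14 counts in glutamine library 3 and 1 count elsewhere, and Cyp26c1 with no count.

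Of 8 tested genes of retinoid handling, 6 were lower and 2 higher in fitted level, with a median log2 fold change of -0.49, or -0.65 to -0.25 when 1 library was left out. The retinoic acid forming dehydrogenases Aldh1a2 and Aldh1a3 had unadjusted p-values of 0.0481 and 0.0218 (edgeR) in opposite directions. Aldh1a2 read 7.89, 2.78 and 4.08 CPM in vehicle libraries and 0.841, 2.01 and 2.63 CPM in glutamine libraries. Aldh1a3 read 1.28, 2.33 and 3.57 CPM against 7.93, 8.84 and 3.62 CPM. The groups overlapped in neither gene, and the adjusted p-values were 0.383 and 0.313. Of the 8 genes, 2 did not overlap on the lower side and 1 on the higher side. The shares of all genes tested were 9.81% and 9.01%. At an unadjusted p below 0.05, 5.58% of all genes were lower and 7.32% higher.

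Among the sterol genes, Cyp27a1, the mitochondrial sterol 27-hydroxylase, read 6.41, 8.33 and 10.9 CPM in vehicle libraries and 6.85, 12.6 and 15.3 CPM in glutamine libraries, which overlapped. Cyp7b1, which hydroxylates oxysterols, read 0, 1.25 and 0.204 CPM against 2.04, 2.01 and 1.32 CPM. The mean of Cyp7b1 was 0.486 CPM in vehicle and 1.79 CPM in glutamine libraries. It thus reached the threshold of 1 CPM only through the glutamine libraries, where it was high. Its groups did not overlap, but its levels rest on 0 to 17 counts, so no difference is read from this. Its adjusted p by edgeR was 0.521. The 4 genes listed as adrenal cortex markers summed to 2.17 to 11.02 CPM in vehicle and 23.5 to 39.9 CPM in glutamine libraries. This was mostly Hsd3b2, at 2.17, 6.09 and 5.60 CPM against 25.6, 19.3 and 34.4 CPM, while Star overlapped between the groups, Hsd3b1 was at most 0.402 CPM and Mc2r was at 0 in all 6 libraries. The sum thus rests mostly on Hsd3b2 and is not read as a sign of adrenal cells. The part of these 4 genes in the Cyp7b1 level was not tested. The 6 members that make steroid hormones were not expressed by the threshold and summed to 0 to 2.06 CPM in a TEC library.

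Cyp51, the lanosterol demethylase of cholesterol synthesis, lies outside the naming rule and read 40.2, 49.8 and 45.3 CPM in vehicle libraries and 58.0, 34.9 and 26.2 CPM in glutamine libraries. Of 14 other tested genes of sterol synthesis and uptake, 12 were lower and 2 higher in fitted level, with a median log2 fold change of -0.31. With factors taken without predicted and receptor genes 10 were lower and 4 higher. At an unadjusted p below 0.05 there were 3, all lower: Fdps, Sqle and Sc5d, with log2 fold changes of -1.20, -0.96 and -0.94 and adjusted p-values of 0.240, 0.267 and 0.248 (edgeR). Of all genes 5.58% were lower at that level. Sqle, which makes squalene epoxide, read 35.0, 26.4 and 15.9 CPM against 14.8, 12.1 and 12.9 CPM. The groups did not overlap on the lower side for 4 of the 14, these 3 and Mvk, against 9.81% of all genes. Vehicle library 5 was the lowest vehicle library for Fdps, Sqle and Sc5d. Without it 9 of the 14 were lower and 5 higher, and the median ran from -0.41 to -0.11 when 1 library was left out, the last without glutamine library 3.

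The genes that supply P450 enzymes with electrons and heme were measured in the same libraries. Por, the oxidoreductase that feeds the microsomal enzymes, read 169, 217 and 305 CPM in vehicle libraries and 278, 249.5 and 315 CPM in glutamine libraries. Of 7 tested electron transfer partners 3 were higher and 4 lower, and without predicted and receptor genes in the factors 4 were higher and 3 lower. None had an unadjusted p below 0.05 by edgeR. Of 7 tested heme synthesis genes 2 were higher and 5 lower, or 3 and 4 with those factors and 4 and 3 without glutamine library 3, and none had an unadjusted p below 0.05 by edgeR. Alas1, the first step of heme synthesis, read 162, 142 and 80.4 CPM against 100.8, 53.4 and 110.2 CPM.

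Among 12 tested nuclear receptors and AHR partners, 10 were lower and 2 higher in fitted level, or 9 and 3 with either other set of factors. The median log2 fold change was -0.13, or -0.37 to -0.03 when 1 library was left out, and none had an unadjusted p below 0.05 by edgeR. Ppara read 13.9, 15.4 and 21.5 CPM in vehicle libraries and 21.7, 11.8 and 23.3 CPM in glutamine libraries. Of 3 tested AHR targets outside family 1, Tiparp was higher and Nqo1 lower at unadjusted p-values of 0.0302 and 0.0370 (edgeR), where 7.32% of all genes were higher and 5.58% lower at an unadjusted p below 0.05. Tiparp, a repressor of AHR, read 21.6, 26.0 and 28.9 CPM against 31.9, 38.8 and 45.2 CPM. Nqo1, a quinone reductase, read 81.6, 125 and 78.1 CPM against 86.5, 37.6 and 42.8 CPM, and its groups overlapped. Of 12 tested enzymes that make or clear arachidonic acid products, 8 were higher and 4 lower, and none had an unadjusted p below 0.05 (edgeR).

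In PMN no member differed between glutamine and vehicle at an adjusted p below 0.05 (edgeR, 10130 genes), which again was the share of all genes, 0%. DESeq2 called 0 of the 20 members it gave an adjusted p, where it called 2.8% of all such genes, and limma-voom called 0 of 13 members and 0% of all genes. Of the 13 members tested, 7 had higher and 6 lower fitted levels. At an unadjusted p below 0.05 there was 1 member, Cyp4f18, on the higher side, where 2.04% of all genes were higher and 1.28% lower. At that level DESeq2 gave 3 of 28 members, against 7.87% of all genes in either direction, and limma-voom 1 of 13, against 6.44%. The median SE of a member's log2 fold change was 2.02, against 0.43 in TECs, so a change of severalfold was often not detectable at this spread. The median log2 fold change was 0.21, and -0.41 without glutamine library 3.

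Cyp4f18 hydroxylates leukotriene B4, the lipid that attracts neutrophils. It lies on the minus strand of chromosome 8 at 71988482 to 72009626 (GRCm38), and 99.6% of its 50-base windows were unique. It read 232, 260.0 and 205 CPM in vehicle libraries 1, 2 and 3 and 332, 339.9 and 525 CPM in glutamine libraries 1, 2 and 3. The groups did not overlap, as on the higher side in 5.87% and on the lower side in 4.63% of all genes tested, and no other tested member had such a small spread in PMN. The log2 fold change was 0.78 with an SE of 0.30, an unadjusted p of 0.0372 and an adjusted p of 1.0 (edgeR). The unadjusted p was 0.105 with DESeq2 and 0.125 without glutamine library 3, where the fold change was 0.53. In glutamine library 3, where Cyp4f18 was highest, neutrophil markers were lowest and monocyte and macrophage markers highest, at 18980 and 8136 CPM, and their part in its level was not tested. Without vehicle library 1 or 2, which held kidney markers, the fold change was 0.74 or 0.86, with an unadjusted p of 0.078 or 0.0571 by edgeR. In TECs, Cyp4f18 had 3 counts in vehicle library 3, 10 in glutamine library 3 and none in the other 4 libraries.

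The enzymes that make leukotriene B4 were listed beside it. Alox5, which starts its synthesis, read 58.4, 70.9 and 12.8 CPM in vehicle libraries and 106, 89.5 and 121 CPM in glutamine libraries. These groups did not overlap, as on the higher side in 5.87% of all genes tested, with an unadjusted p of 0.176 by edgeR. Its helper Alox5ap read 1700, 1334 and 1742 CPM against 2904, 1816 and 1428 CPM. Lta4h, the last step, read 115, 66.3 and 31.2 CPM against 113, 136 and 76.9 CPM. Both overlapped. Of 10 tested enzymes of arachidonic acid products 5 were higher and 5 lower, and none had an unadjusted p below 0.05 (edgeR). With limma-voom, and without vehicle library 2 or glutamine library 2, there were 7 higher and 3 lower. With at least 10 counts in every library, 5 were tested and all 5 were higher.

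**Figure D4:**
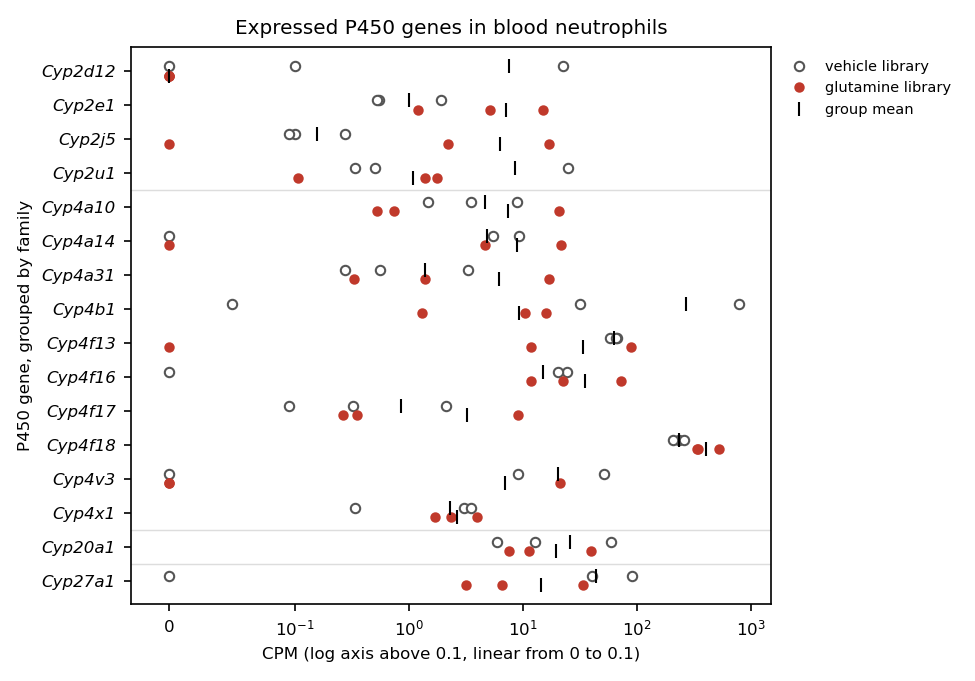
CPM of the 16 P450 genes expressed in PMN is plotted by family on an axis that is linear from 0 to 0.1 CPM and logarithmic above, with open points for the 3 vehicle libraries, filled points for the 3 glutamine libraries and a bar for each group mean. Cyp4f18 is the one gene with all 6 libraries within a narrow range, 205 to 525 CPM, and 7 genes have at least 1 library at 0.

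The other 15 expressed members differed by more than 10 times between the highest and lowest library or were at 0 counts in some library, which held for 7 of the 16. Cyp4b1 read 0.0501, 779 and 31.4 CPM in vehicle libraries and 10.4, 15.9 and 1.31 CPM in glutamine libraries, so 1 library held nearly all of it. Its log2 fold change was -4.87 with an SE of 2.49, and -0.78 without vehicle library 2. In that same library, podocyte markers summed to 1451 CPM and endothelial markers to 1500 CPM. In the other 5 libraries they summed to at most 8.78 and 58.9 CPM. Kdr of endothelium read 619 CPM there and was at 0 in the other 5 libraries. Their part in the Cyp4b1 level was not tested.

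Cyp4f13, a further family 4 member, read 57.5, 66.7 and 64.7 CPM in vehicle libraries and 0, 11.7 and 87.9 CPM in glutamine libraries. Cyp4f16, which shares 16.3% of its 50-base windows with Cyp4f37, read 24.4, 0 and 20.3 CPM against 22.2, 71.5 and 11.6 CPM. For both, single libraries went from no count to the highest level within 1 cell type. Cyp27a1 read 89.7, 0 and 40.5 CPM against 6.58, 3.16 and 33.4 CPM. Cyp20a1, an orphan enzyme with no settled substrate, read 12.7, 59.2 and 5.85 CPM against 39.2, 11.4 and 7.58 CPM. Cyp4v3 read 51.5, 9.07 and 0 CPM against 0, 0 and 20.97 CPM. In each of these genes the groups overlapped.

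The Cyp4a genes were low in PMN and highest in glutamine library 3. Cyp4a14 read 0, 9.12 and 5.42 CPM in vehicle libraries and 4.63, 0 and 21.7 CPM in glutamine libraries. Cyp4a10 read 3.51, 1.46 and 8.80 CPM against 0.737, 0.519 and 20.8 CPM. Cyp4a31 reached 16.8 CPM in glutamine library 3 and 0.274 to 3.28 CPM in the other 5 libraries, and in all 3 genes the groups overlapped. Cyp2j5 was also highest in that library, with 16.8 CPM against 0 to 2.17 CPM elsewhere. Summed proximal tubule markers read 53.6 CPM in glutamine library 3, against 39.6 to 116 CPM in the other 5, and of the 12 markers Slc22a6 alone was highest there, with 11.5 CPM against 3.11 to 7.92 CPM. Their part in these levels was not tested. Cyp2u1 was highest in vehicle library 1, with 24.7, 0.502 and 0.333 CPM in vehicle libraries and 0.105, 1.37 and 1.76 CPM in glutamine libraries. Vehicle library 1 also held 1025 CPM of the thick limb gene Umod, against 0.613 to 33.4 CPM in the other libraries.

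Cyp2e1 had the lowest PMN p-value after Cyp4f18. It read 1.90, 0.547 and 0.523 CPM in vehicle libraries and 14.8, 5.09 and 1.20 CPM in glutamine libraries, with an unadjusted p of 0.0805 (edgeR). The groups overlapped, and vehicle libraries 2 and 3 held 12 and 11 counts. Its mean was 0.992 CPM in vehicle and 7.03 CPM in glutamine libraries. Cyp2e1 thus reached the threshold of 1 CPM only through the glutamine libraries, where it was high, so no difference is read from this. Cyp2d12 rested on vehicle library 3, with 472 counts there and 2 in the other 5 libraries together. Cyp24a1, Cyp27b1 and Cyp2r1 of the vitamin D group were not expressed by the threshold, and Cyp24a1 had no count in any PMN library.

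Levels in TECs and PMN are given side by side, since the tables were normalized separately and no test was made between them. Cyp20a1 had means of 34.7 CPM in TECs and 22.7 CPM in PMN, and Cyp4b1 468 and 139.7 CPM, the latter nearly all from vehicle library 2. For Cyp2d26, with 364 CPM in TECs, and Cyp24a1, with 96.8 CPM, the mean in PMN was below 1 CPM. Cyp2j13, with 62.3 CPM in TECs, had counts in 2 of the 6 PMN libraries. Cyp4f18 had means of 0.232 CPM in TECs and 316 CPM in PMN.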

How the data were processed

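RNA of the sorted cells was converted to cDNA from the polyA tail and read as single ends of 50 bases. The values the authors deposited are estimated counts without normalization, given by gene symbol. Their processing notes name Trim Galore 0.6.4, Salmon 1.0.0, DESeq2 and the build mm10. The PMN table had passed through a spreadsheet and was used, other than planned, after decoding: in the deposited file 3.20% of estimated counts carried extra points and 0.39% had become dates, which lose the second decimal. The 2 columns of a PMN library were averaged as 1 replicate.

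Salmon splits reads that match several genes, which touches Cyp2a, Cyp2d, Cyp4a and Cyp4f genes. Counts were rounded and tested per cell type with edgeR 4.0.16 (R 4.3.3): TMM, default expression filter, robust quasi-likelihood fit, adjusted p below 0.05. DESeq2 1.42.0, limma 3.58.1, other normalizations, filters and left-out libraries were alternatives. The fits were tested on simulated data, but no result of that is given here, and no statement above rests on it. Positions and 50-base windows shared between genes came from GENCODE M21 (GRCm38), matched by symbol.

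The members, gene lists and markers were chosen with earlier results of these data known. Values per library are given for the 10 most abundant members, those with an unadjusted p below 0.05 and expressed members of the vitamin D, retinoic acid, sterol and steroid groups; Cyp4a14, Cyp4v3 and other genes outside this rule were added after their values were seen. Intervals for a count of 0 (3 counts) cover counting error alone. Some genes of the lists are not reported here by name.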

Additional observations from a re-analysis of the deposited data

How the results depend on the processing

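In TECs 0 members were called with DESeq2, limma-voom, both other normalizations, the stricter filter and each left-out library; without an expression filter 2 were called, among 74 tested. The number with an unadjusted p below 0.05, 4 in the main test, was 7 without that filter and 3 to 8 when 1 library was left out. The shares of all genes in these fits are not given, so no excess is read from these counts. The median log2 fold change ran from -0.12 to 0.24 over left-out libraries. It was 0.44 with DESeq2 and 0.38 without a filter, each over 74 members, where the medians of all genes were 0.17 and 0.14. With limma-voom it was 0.023, against 0.0081 for all genes. Fold changes that changed sign when 1 library was left out ran from -0.60 to 0.06 for Cyp4b1, from -0.17 to 0.62 for Cyp2d26, from -1.01 to 1.64 for Cyp24a1, from -0.66 to 0.27 for Cyp2e1 and from -0.37 to 1.04 for Cyp27b1; the other 12 TEC members followed kept their direction under every alternative run.

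In PMN 0 members were called under every alternative run. The number with an unadjusted p below 0.05 was 3 with DESeq2 and 0 to 2 over left-out libraries. For the left-out libraries the shares of all genes are likewise not given. The median was -0.11 with DESeq2 and -0.11 without a filter, and ran from -0.41 to 0.69 over left-out libraries. Fold changes over left-out libraries ran from -1.45 to 1.05 for Cyp20a1, from -11.70 to 0.56 for Cyp4v3 (fitted to glutamine libraries at 0), from -1.09 to 1.69 for Cyp4a14, from -2.87 to 1.56 for Cyp4a10 and from -3.55 to 1.32 for Cyp2u1. With limma-voom 2 signs turned: Cyp27a1 had 1.05, against -1.59 by edgeR, and Cyp4a10 -0.81, against 0.68. At a mean of 5 CPM, 9 PMN and 24 TEC members were expressed, and on plain library totals 16 and 33. Either column of the PMN libraries alone gave 0 calls; this setting was chosen after seeing the data. The causes were not tested.

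No paired analysis was possible because a single replicate number occurs in both TEC groups and the PMN numbers only name the libraries. Depth limits the members near 1 CPM, which rest on a few counts in a TEC library; in PMN the spread between libraries is the limit.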
